A study of Mus musculus with 8 samples.

Results

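The baseline described here is the pituitary transcriptome of 4 control mice, out of 8 whole pituitaries in the study. They were taken as the libraries of the isotype control group, and the genes as those annotated as protein-coding, 22046 of 54854 in the deposited tables. All mice were C57BL/6N and 5 weeks old. The 4 control mice, 1 female (gland 1) and 3 males (glands 2, 3 and 4), received rat IgG2a of clone 2A3, an isotype control antibody without a mouse target. The other 4 mice, 1 female and 3 males, received anti-CD115 of clone AFS98, which blocks the receptor that macrophages need to survive, and are not used here. In both groups the antibody went to the pregnant dam, 3 mg at embryonic day 6.5, and then to the offspring, 100 µg at postnatal day 2, 150 µg at day 14 and 200 µg at 4 weeks. These days are from the treatment protocol; the series' design text instead describes a dose every second week after birth, 4 in total. The control animals are therefore not untreated, and the number of dams and litters is not given in the labels.

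The pituitary joins 2 tissues. The anterior and intermediate lobes are epithelial and hold the hormone cells: somatotrophs make growth hormone, lactotrophs prolactin, corticotrophs and melanotrophs the peptides cut from proopiomelanocortin, gonadotrophs luteinising and follicle-stimulating hormone, and thyrotrophs thyrotropin. The posterior lobe is neural and holds the endings of hypothalamic neurons that release oxytocin and vasopressin, with its glial cells, the pituicytes. Releasing and inhibiting factors from the hypothalamus act on receptors of the hormone cells, and steroids, thyroid hormone and other products of the target organs feed back on them. Levels are given as FPKM, fragments per kilobase of gene and 1e6 reads, so that genes of unlike length can be compared. A share is a gene's FPKM as a percent of the summed FPKM of all protein-coding genes of that gland.

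The libraries held 23590300, 28166824, 34724813 and 30109844 counts in glands 1 to 4. A floor of 3 counts corresponded to 0.0864 to 0.127 counts per 1e6 counts. Floors cover counting error only. The labelled sexes matched the sex-linked genes, with Xist at 5.48 FPKM in gland 1 against at most 0.0272 FPKM in the males. The Y-linked genes Ddx3y, Eif2s3y, Uty and Kdm5d ran from 1.37 to 15.6 FPKM in the males and were at 0.0161 FPKM or less in gland 1. Gland 3 stood apart. Its Pearson correlations with the other glands, on log2(FPKM + 1) across genes, were 0.974, 0.980 and 0.979, against 0.981 to 0.990 for the pairs without it. Genes under 1000 bases had a median log2 difference of 0.17 in gland 3 from the mean of the other 3, and genes over 8000 bases one of -0.22. Whether gene length has a part in the values of gland 3 given below was not tested. The choice of scale also matters, because Gh takes an unlike share of each gland. On the TPM scale, which divides by the summed FPKM of each gland with Gh included, all genes shift by 0.14, 0.09, -0.12 and -0.11 (log2) in glands 1 to 4. TPM therefore does not remove the effect of Gh on the other genes. Directions and CVs below are on the FPKM scale, and the statements on which gland was highest or lowest that TPM turns are named. Counts of list members highest or lowest in a gland are given without the same share over all genes, which was not counted. They describe the members and cannot be read as traits of a list.

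The 7 hormone genes together carry most of the transcripts of the gland, and their start sites were looked at where a promoter window was found. RefSeq promoter windows of the build GRCm38.p6 were found for 6 of the 7, Prl, Pomc, Cga, Lhb, Fshb and Tshb. None was found for Gh, which alone held 46.7% of protein-coding transcripts on average, of 57.5% for the 7 together. The windows thus cover only the smaller part of that share. The motif TATAAA, the core of a TATA box, was searched for on the strand of the gene in the 40 bases before the start. All 6 windows held it, with its initial base 24 to 31 bases before the start. The same stretch held it in 6 of 89 windows (6.74%) for the 100 highest genes, 5 of them windows of these hormone genes, and in 1 of 84 (1.19%) without the hormone genes. It was held in 1.29% of 12058 windows of protein-coding genes at 1 FPKM or more, and in 2.31% of all 32851 windows. The 150 bases before the RefSeq start of 5 of the genes follow, with matched motifs in capitals.
Prl, chr13:27057420-27057569, plus strand: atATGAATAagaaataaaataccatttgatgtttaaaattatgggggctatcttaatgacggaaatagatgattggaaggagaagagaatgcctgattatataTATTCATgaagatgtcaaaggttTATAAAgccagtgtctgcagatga
Pomc, chr12:3954795-3954944, plus strand: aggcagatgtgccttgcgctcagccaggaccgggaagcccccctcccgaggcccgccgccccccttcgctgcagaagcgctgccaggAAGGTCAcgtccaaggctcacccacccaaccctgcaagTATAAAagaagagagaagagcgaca
Cga, chr4:34893629-34893778, plus strand: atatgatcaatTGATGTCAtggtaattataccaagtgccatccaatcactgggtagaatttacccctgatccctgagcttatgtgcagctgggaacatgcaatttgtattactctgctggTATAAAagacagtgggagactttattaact
Fshb, chr2:107059652-107059801, minus strand: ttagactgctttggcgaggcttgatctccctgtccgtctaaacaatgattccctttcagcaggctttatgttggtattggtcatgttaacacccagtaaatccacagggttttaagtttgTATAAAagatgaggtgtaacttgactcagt
Tshb, chr3:102782715-102782864, minus strand: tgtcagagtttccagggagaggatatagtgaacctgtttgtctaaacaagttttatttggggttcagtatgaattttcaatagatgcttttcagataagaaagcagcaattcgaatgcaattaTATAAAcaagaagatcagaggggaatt

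Capitals also mark 3 motifs searched on both strands of the 250 bases before the start. TATNCAT, the core of the element bound by the pituitary factor Pou1f1, occurred in Prl, at 47 bases before the start and, on the other strand, at 148 bases. It was in 7.92% of all windows. AAGGTCA, the element of the gonadotroph factor Nr5a1 and related receptors, occurred in Pomc at 63 bases and in Lhb at 129 bases, where the match was on the other strand. It was in 4.08% of all windows. TGANGTCA, close to the element through which cyclic AMP acts, occurred in Cga at 139 and at 209 bases, and in 7.49% of all windows. None of the matches shown overlap. Positions count from the RefSeq start, which lies a few bases away from the deposited gene start for Pomc, Fshb and Tshb. For Lhb it lies well inside the deposited gene, as do most of the 150 bases before it. The Lhb positions therefore depend on which start is used. A match describes the letters only, and no binding was measured.

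The transcriptome was steep. Of the 22046 protein-coding genes, 14978 had a mean of 0.1 FPKM or more over the 4 glands, 11952 reached 1, 4199 reached 10, 201 reached 100, 17 reached 1000 and 3 reached 10000 FPKM. A further 4440 had no read in any gland, and 15791 had a read in all 4. The 3 genes above 10000 FPKM, Gh, Prl and Pomc, held 56.4 ± 3.37% of protein-coding transcripts (SD, n = 4), and the 100 highest genes held 69.0 ± 2.61%. The 7753 genes between 1 and 10 FPKM held 7.21% together. The numbers of list members that reach 1, 10 or 100 FPKM below are to be set against those of all 22046 genes given here.

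Gh, which encodes growth hormone, was the highest gene in each gland. It stood at 154270.0, 207047, 269950.0 and 272951 FPKM in glands 1 to 4, or 35.7%, 46.3%, 52.2% and 52.7% of protein-coding transcripts. The female gland was below all 3 males, and the mean share was 46.7 ± 7.89% (SD, n = 4). Prl, which encodes prolactin, stood at 59223 FPKM in gland 1 and at 17366, 15633 and 12160.3 FPKM in glands 2 to 4. The female value was 3.41 times the highest male value. Prl was high where Gh was low, and their combined share differed less between glands, at 49.4% in the female against 50.1%, 55.2% and 55.0% in the males.

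Pomc, the precursor of corticotropin, melanotropin and beta-endorphin, stood at 14183 FPKM in gland 1 and at 19530.1, 22129.5 and 21182 FPKM in glands 2 to 4. The female was again lowest. Pomc and Prl changed places between animals: Prl was 4.18 times Pomc in the female, and 0.889, 0.706 and 0.574 times Pomc in the males. They were the only neighbours in the order of the 7 hormone genes whose ranges overlapped. Gh kept a narrower ratio to Pomc, 10.9 in the female against 10.6, 12.2 and 12.9 in the males.

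The 7 hormone genes lie on 7 chromosomes. On GRCm38, by the deposited annotation, Gh spans 106300271 to 106301865 on chromosome 11, Prl 27057570 to 27065205 on chromosome 13 and Pomc 3954951 to 3960642 on chromosome 12. The subunit genes Cga (34893779 to 34907370 on chromosome 4), Lhb (45420820 to 45421897 on chromosome 7), Fshb (107056140 to 107059656 on chromosome 2) and Tshb (102775465 to 102782718 on chromosome 3) are likewise scattered.

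Cga, the alpha subunit shared by luteinising hormone, follicle-stimulating hormone and thyrotropin, had a CV of 6.90% over the glands, the SD as a percent of the mean, or 12.03% in TPM. It was at 3084 FPKM in the female and 2725, 2751 and 3088 FPKM in the males. Lhb, the beta subunit of luteinising hormone, was at 872 FPKM in the female and 1437, 1437 and 1569 FPKM in the males. Fshb, the beta subunit of follicle-stimulating hormone, was at 209 FPKM in the female and 633, 527 and 614 FPKM in the males. Both gonadotropin beta subunits were lowest in the female, without overlap, while Cga was not, and in TPM Cga was highest in the female. Cga exceeded Lhb 3.54-fold in the female and 1.90-fold to 1.97-fold in the males. Tshb, the beta subunit of thyrotropin, was the lowest hormone gene, at 81.2 FPKM in the female and 58.9, 88.7 and 94.1 FPKM in the males, and ranked 285th by its mean. Together the 7 hormone genes made up 57.5 ± 3.35% of protein-coding transcripts (SD, n = 4). Of reads, without the division by gene length, they took 24.8%, 24.3%, 29.1% and 27.9%.

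**Figure D1:**
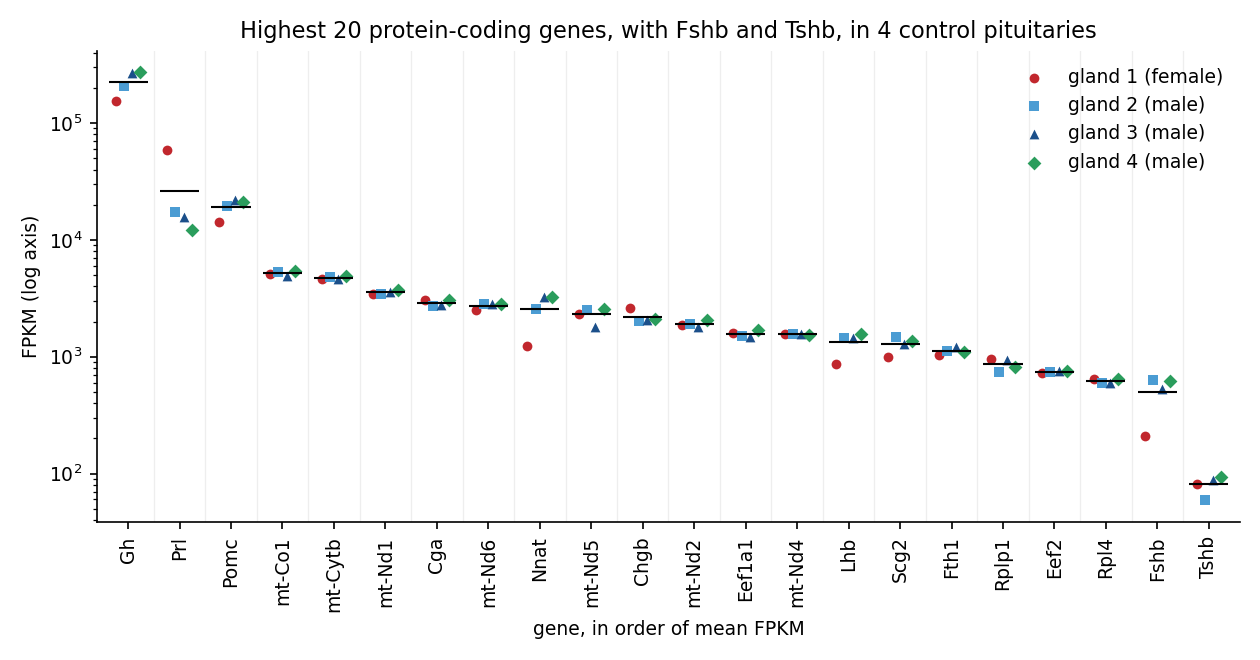
FPKM on a log axis for the 20 highest protein-coding genes and for Fshb and Tshb, in order of their mean; each symbol is 1 gland and each bar the mean of 4. In FPKM the female gland lies below the males for Gh, Pomc, Nnat, Lhb, Scg2 and Fshb, which TPM keeps. It lies above them for Prl, Chgb and Rplp1, which TPM keeps too. In FPKM, though not in TPM, it is also lowest for mt-Cytb, mt-Nd1, mt-Nd6, Fth1 and Eef2. The glands lie closer together for mt-Co1 and Eef2 (CVs of 10.7% and 7.84% in TPM).

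The 20 highest genes held 4 further groups. Among them were 7 mitochondrially encoded genes of the respiratory chain, from mt-Co1, a subunit of cytochrome c oxidase with a mean of 5212 FPKM, to mt-Nd4, a subunit of complex I with 1562 FPKM. The granule proteins Chgb and Scg2 and the translation genes Eef1a1, Rplp1, Eef2 and Rpl4 made up 2 groups. The remaining pair were Nnat, an imprinted gene of a membrane proteolipid, and Fth1, the ferritin heavy chain. Nnat stood at 1241 FPKM in the female and at 2574, 3246 and 3222 FPKM in the males, so the female was below all 3. Eef2, an elongation factor, had a CV of 1.62%, or 7.84% in TPM. Among the 100 highest genes, 19 encoded cytosolic ribosomal proteins and 8 came from the granule, processing and exocytosis lists, and the median gene length was 1775 bases against 4429 bases for all genes at 1 FPKM or more.

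Some of these levels may depend on near-identical copies, which was not tested. The mitochondrially encoded genes mt-Co2, mt-Atp6, mt-Co3, mt-Atp8, mt-Nd4l and mt-Nd3 had means of only 5.00 to 31.0 FPKM, and mt-Co1 was 146 to 200 times mt-Co2. The chromosome 1 pseudogenes Gm10925, Gm29216, Gm28437 and Gm28661, copies of mitochondrial genes, had 28.0 to 55.2 FPKM. Gapdh, a glycolytic enzyme, was at 1.42, 7.24, 1.56 and 1.18 FPKM, far under Actb, the cytoplasmic actin, at 232, 219.7, 236 and 196 FPKM. The treatment of reads that match several copies is not given in the sources used here, so the levels of these genes, of ribosomal protein genes and of the globin pairs are uncertain. For mt-Nd6, which lies on the strand opposite its neighbour mt-Nd5, they are uncertain also because strand-specific counting is not stated.

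**Figure D2:**
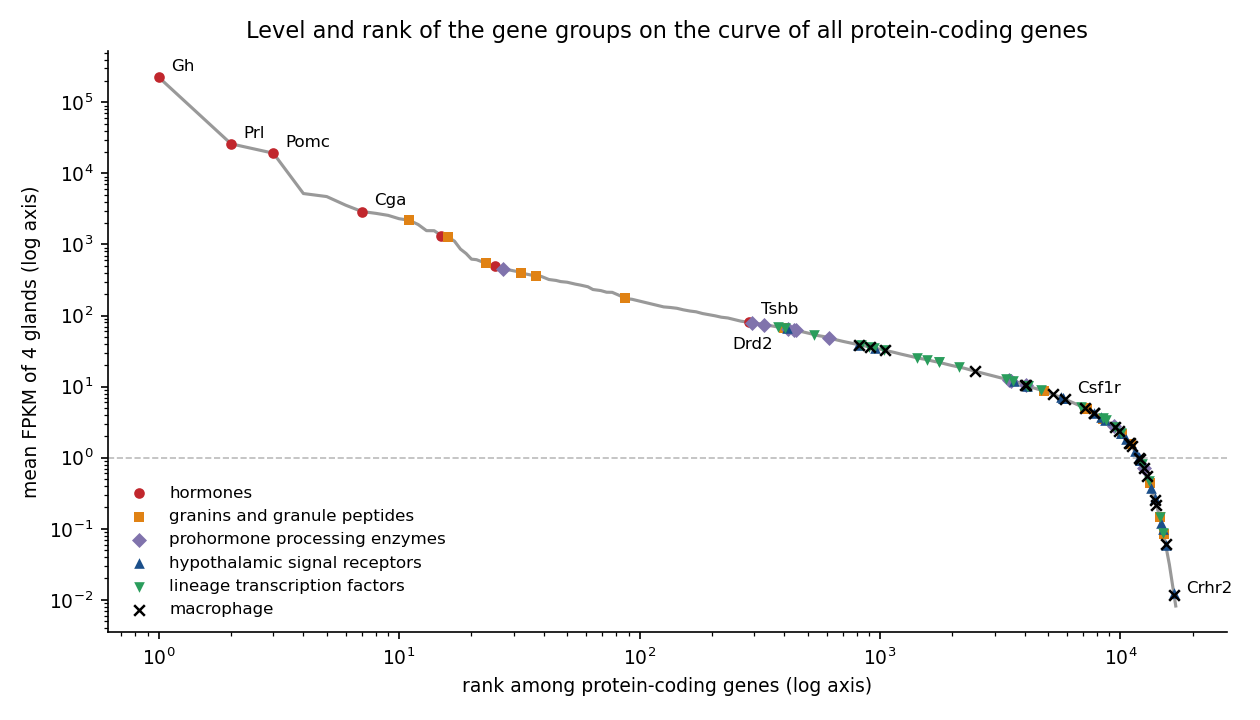
Mean FPKM of the 4 glands against rank among protein-coding genes, both on log axes; the grey line is all protein-coding genes and the symbols are members of 6 lists with a mean above 0.01 FPKM. Hormones and granins fill the upper end, receptors and lineage factors start near 70 FPKM, and the macrophage genes start near rank 819.

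Granule cargo followed the hormones. Granins are acidic proteins that drive granule formation and are stored with the hormones. Of 18 granins and granule peptides, 14 had a mean of 1 FPKM or more and 6 of them 100 or more. Chgb, chromogranin B, was at 2591 FPKM in the female and 2021, 2069 and 2103 FPKM in the males, with the female above all 3. Scg2, secretogranin II, was at 992 FPKM in the female and 1465, 1281 and 1364 FPKM in the males, with the female below all 3. Chga, chromogranin A, was at 301 FPKM in the female and 439, 490.1 and 352 FPKM in the males, so Chgb was 8.61 times Chga in the female and 4.22 to 5.98 times Chga in the males. The convertase inhibitor Pcsk1n averaged 544 FPKM, the Pcsk2 chaperone Scg5 361 FPKM and Scg3, which binds chromogranin A, 174 FPKM. Although single granins differed, the summed level of the list was 5111, 5066, 5061 and 4931 FPKM, a CV of 1.54%, which is 10.4% in TPM. Neuropeptides on the list were far lower. Gal, galanin, was at 2.52 FPKM in the female and 3.37, 8.27 and 5.71 FPKM in the males, and Tac1, the substance P precursor, at 0.233 FPKM in the female and 3.00, 1.63 and 3.66 FPKM in the males. Adcyap1, the PACAP precursor, averaged 0.0838 FPKM. Nts, the neurotensin precursor, had no count in any gland, where the floor of 3 counts corresponds to 0.0692 to 0.102 FPKM.

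Prohormones are cut by convertases and trimmed by carboxypeptidases inside the granule. Of 12 processing genes, 11 reached 1 FPKM. Cpe, the carboxypeptidase that trims prohormone fragments, was highest, with 448, 462, 450.4 and 438 FPKM and a CV of 2.20%, or 10.6% in TPM. The convertase Pcsk2, which in melanotrophs cuts corticotropin further, was at 71.6 FPKM in the female and 83.8, 67.4 and 76.6 FPKM in the males. Pcsk1, which releases corticotropin, was at 33.2 FPKM in the female and 56.6, 46.9 and 57.9 FPKM in the males, with the female below all 3. Pcsk2 thus exceeded Pcsk1 in every gland, 2.16-fold in the female and 1.32-fold to 1.48-fold in the males. The proton pump accessory genes Atp6ap1 and Atp6ap2 averaged 79.4 and 61.7 FPKM, Pcsk6, a convertase of the constitutive pathway, 65.3 FPKM, and Pam, which amidates peptides, 62.8 FPKM.

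Of 31 genes of the granule membrane and of exocytosis, 30 reached 1 FPKM and 20 reached 10. Ptprn, a receptor-type phosphatase of the granule membrane, averaged 194 ± 7.69 FPKM (SD, n = 4). Below it came the granule synaptotagmin Syt4 with 85.7 FPKM, the tethering GTPase Rab27a with 75.2 FPKM and its effector Sytl4 with 62.5 FPKM. Complexin Cplx2 was at 73.0, 75.3, 51.4 and 73.5 FPKM, lowest in gland 3. The fusion protein Vamp2 averaged 60.4 FPKM. Slc18a1, a vesicular monoamine transporter, was the list's only member under 1 FPKM, at 0.796 FPKM.

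Receptors for hypothalamic signals were lower than the granule lists, with a mean summed level of 206 FPKM. This was also below the lineage factors given further on, with 527 FPKM. Of 24 such genes, 16 reached 1 FPKM, 5 reached 10 and none reached 100. Drd2, through which dopamine holds back lactotrophs and melanotrophs, was highest, with 67.4 FPKM in the female and 64.9, 66.1 and 66.2 FPKM in the males. Its CV was 1.55%, or 9.66% in TPM, in the same animals in which Prl had a CV of 85.0%. Among the 3 males alone the CVs were 1.11% for Drd2 and 17.6% for Prl. Gnrhr, the gonadotropin-releasing hormone receptor, was at 46.2 FPKM in the female and 43.6, 26.1 and 39.5 FPKM in the males. Ghrhr, the growth hormone-releasing hormone receptor, was at 31.7 FPKM in the female and 29.1, 39.4 and 39.5 FPKM in the males. Their order was not fixed. Gnrhr exceeded Ghrhr in glands 1 and 2, was lower in gland 3, and was nearly equal to it in gland 4, where the ratio was 1.00.

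Somatostatin holds back growth hormone and thyrotropin release through 5 receptors, all of which were detected. Sstr1 averaged 11.8 FPKM and Sstr3 10.3 FPKM. Sstr5 was at 4.98, 5.19, 11.0 and 6.17 FPKM and Sstr2 at 2.65, 2.24, 6.92 and 3.11 FPKM, both highest in gland 3. Sstr4 averaged 1.02 FPKM. Crhr1, the corticotropin-releasing hormone receptor, averaged 7.03 FPKM, and Adcyap1r1, the PACAP receptor, 6.86 FPKM. Trhr, the thyrotropin-releasing hormone receptor, averaged 3.44 FPKM. Ghsr, the ghrelin receptor, was at 1.34 FPKM in the female and 1.88, 2.20 and 3.38 FPKM in the males, and Avpr1b, the vasopressin receptor of corticotrophs, averaged 1.25 FPKM. Kiss1r, the kisspeptin receptor, averaged 0.939 FPKM. Crhr2 and the galanin receptor Galr1 averaged 0.0125 and 0.0597 FPKM.

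A dopamine receptor gene differed between the female and the males. Drd4 had no count in the female and was at 0.989, 1.39 and 1.29 FPKM in the males, from 96, 161 and 126 counts. Set against a floor of 3 counts in the female library, or 0.0376 FPKM, Drd4 was at least 26.3-fold lower in the female than in the lowest male. Galr3, another galanin receptor, went the other way, with 3.62 FPKM in the female and 1.62, 1.05 and 1.00 FPKM in the males. One female animal cannot part sex from animal, here or below.

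**Figure D3:**
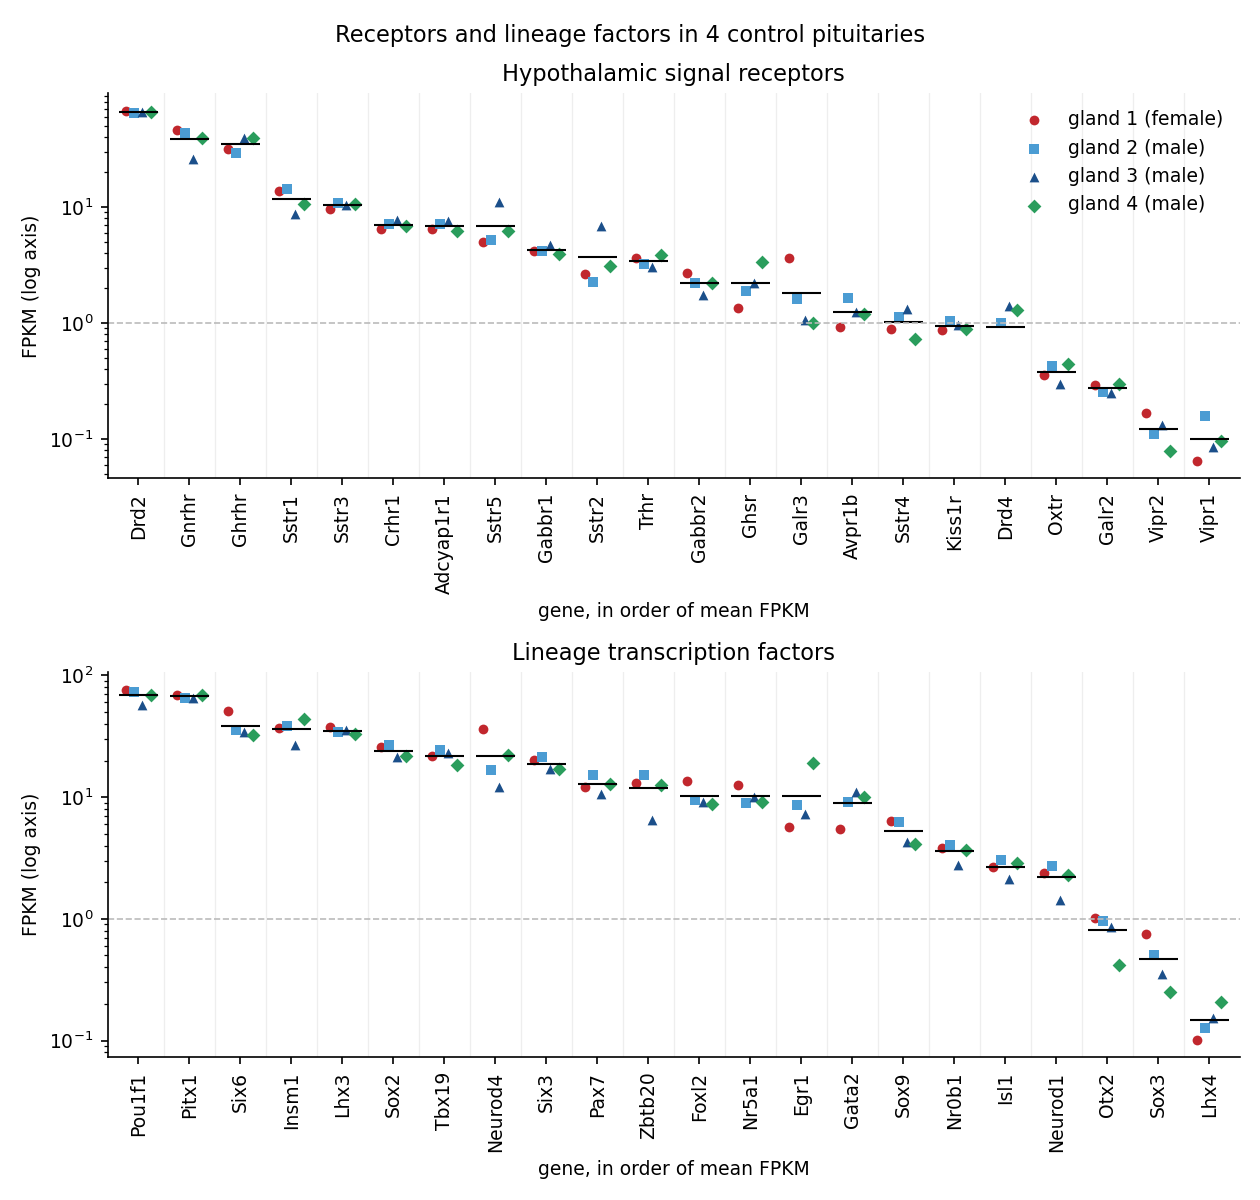
FPKM on log axes of 22 hypothalamic signal receptors (upper panel) and 22 lineage transcription factors (lower panel) with a mean of 0.1 FPKM or more, with 1 symbol per gland, bars for the mean and a dashed line at 1 FPKM; a value of 0, Drd4 in gland 1, is not drawn. Drd2 and Pitx1 lie within narrow ranges on this scale (CVs of 9.66% and 10.8% in TPM), while Neurod4 and Egr1 spread widely.

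Feedback receptors and the activin system covered 29 genes, of which 25 reached 1 FPKM and 11 reached 10. Thra, a thyroid hormone receptor, was highest, at 39.4, 40.6, 39.9 and 39.0 FPKM, with a CV of 1.78%, or 10.03% in TPM. Thrb, the receptor through which thyroid hormone represses Tshb, was at 21.4 FPKM in the female and 16.2, 14.5 and 15.7 FPKM in the males. Tgfbr3, the betaglycan coreceptor of inhibin, averaged 26.1 FPKM. Nr3c1, the glucocorticoid receptor, was at 16.4 FPKM in the female and 25.02, 21.0 and 33.7 FPKM in the males. Il6st, the gp130 chain shared by the receptors of the interleukin-6 family, was at 31.6 FPKM in the female and 23.9, 18.1 and 21.8 FPKM in the males. The female was thus lowest for Nr3c1 and highest for Il6st and Thrb. Bmpr1a, a bone morphogenetic protein receptor, and Rxrg, a retinoid X receptor, averaged 23.8 and 20.1 FPKM.

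Among sex steroid receptors, Esr1, the estrogen receptor alpha, was at 13.9 FPKM in the female and 13.3, 9.86 and 11.9 FPKM in the males. Pgr, the progesterone receptor, was at 3.84 FPKM in the female and 1.93, 1.11 and 1.65 FPKM in the males. For Pgr the female value was 1.99 times that of the highest male. Esr2, the estrogen receptor beta, averaged 0.0578 FPKM, and Fst, the activin-binding follistatin, 0.0424 FPKM.

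Lineage factors had a median of 11.9 FPKM over the list, against 2.46 FPKM for all annotated transcription factors with a mean above 0. Of the 27 genes on the list, 23 reached 1 FPKM and 17 reached 10. Of all 1451 protein-coding genes that the deposited annotation places in a transcription factor family, 842 reached 1 FPKM, 181 reached 10 and 0 reached 100 by their mean. Pou1f1, which somatotrophs, lactotrophs and thyrotrophs require, was at 76.1, 73.6, 57.1 and 69.6 FPKM, and Pitx1, a factor of all pituitary lineages, at 69.7, 64.9, 64.8 and 69.3 FPKM. They were 6th and 7th among all annotated transcription factors, between the general factors Ybx1 (99.3 FPKM), Xbp1 (83.4 FPKM), Nfe2l1 (76.4 FPKM), Jund (73.8 FPKM) and Peg3 (69.5 FPKM) above, and Plagl1 (64.0 FPKM), Creb3l2 (56.6 FPKM) and Atf4 (55.5 FPKM) below. Xbp1 and Creb3l2 serve the secretory pathway, and Atf4 the stress response.

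Six6, a homeobox factor, was at 51.0 FPKM in the female and 35.6, 34.2 and 32.5 FPKM in the males. Insm1, a factor of endocrine cells, averaged 36.4 FPKM, and Lhx3, needed for most hormone lineages, 35.2 FPKM. The factors of single lineages were lower. Tbx19, needed for Pomc expression in corticotrophs and melanotrophs, averaged 21.9 FPKM, and Pax7, which sets melanotroph identity, 12.7 FPKM. Nr5a1, the gonadotroph factor SF-1, was at 12.6 FPKM in the female and 8.97, 10.01 and 9.09 FPKM in the males. Foxl2, which drives Fshb, was at 13.6 FPKM in the female and 9.46, 9.11 and 8.84 FPKM in the males, so both were higher in the female gland with the lower Lhb and Fshb. Gata2, a thyrotroph and gonadotroph factor, went the other way, with 5.45 FPKM in the female and 9.06, 11.1 and 10.01 FPKM in the males.

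Neurod4, a somatotroph lineage factor, was at 36.5 FPKM in the female and 16.7, 12.02 and 22.3 FPKM in the males. Hesx1, an early repressor of the pituitary primordium, averaged 0.0866 FPKM. As a list, the lineage factors summed to 576, 547, 459 and 526 FPKM. Gland 3 was lowest for 14 of the 27 and highest for 2, in FPKM and in TPM. The share of all genes lowest in gland 3 was not counted, so this cannot be read as a trait of the list.

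Stem and folliculostellate cell markers summed to 300.3 FPKM in the female and 343, 344 and 337 FPKM in the males, and 15 of 17 reached 1 FPKM. In TPM the lowest sum was in gland 4 and not in the female. Cyp2f2, a cytochrome P450, averaged 84.2 FPKM, the epithelial keratins Krt18 and Krt8 64.4 and 39.0 FPKM, the retinoic acid enzyme Aldh1a2 34.9 FPKM and the calcium-binding S100a1 32.4 FPKM. Sox2, the stem cell factor, was at 25.6, 27.0, 21.3 and 21.6 FPKM. The classical folliculostellate marker S100b was low and uneven, at 0.760, 1.10, 2.47 and 0.375 FPKM. Aldh1a3, another retinoic acid enzyme, averaged 0.0810 FPKM.

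Transcripts of the posterior lobe were present and lowest in gland 4. Oxt, oxytocin, was at 27.4, 30.9, 30.8 and 15.6 FPKM and Avp, vasopressin, at 12.01, 11.3, 13.4 and 6.62 FPKM, both transcripts that magnocellular neurons carry down their axons. Oxt was 2.28 to 2.73 times Avp in each gland, so the ratio held where the levels dropped. Pituicyte and glial markers, 11 genes with 10 at 1 FPKM or more, summed to 42.0, 46.7, 32.2 and 19.6 FPKM, and gland 4 was lowest for 10 of the 11. The share of all genes lowest in gland 4 was not counted. The sodium channel gene Scn7a was at 9.73, 13.2, 5.71 and 3.60 FPKM, the collagen gene Col25a1 at 6.25, 7.70, 3.37 and 2.18 FPKM, and Rax, a factor of tanycytes and pituicytes, at 1.98, 1.98, 2.22 and 0.291 FPKM. The myelin gene Mbp averaged 7.33 FPKM, and the astrocyte genes Slc1a3 and Aqp4 4.44 and 2.85 FPKM. In whole glands, fewer cells of a type and less RNA per cell cannot be told apart. Of 8 neuron and brain markers, 5 reached 1 FPKM, led by the GABA synthesis gene Gad2 at 11.2 FPKM in the female and 6.25, 4.82 and 4.06 FPKM in the males. Its companion enzyme Gad1 averaged 0.0267 FPKM, Mog, a myelin gene, 0.0994 FPKM, and Neurod6, a cortical neuron factor, had no count, with floors of 0.0402 to 0.0591 FPKM.

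Gland 4 was also lowest in vessel markers. All 12 endothelial markers reached 1 FPKM, they summed to 171, 171, 188 and 124 FPKM, and gland 4 was lowest for all 12. How many of all genes were lowest or highest in each gland was not counted, so the tallies here cannot be read as traits of a list. Plvap, the diaphragm protein of fenestrated capillaries, was by far the highest, at 97.7, 96.9, 111 and 73.5 FPKM. The endoglin gene Eng averaged 13.02 FPKM and the cadherin Cdh5 11.2 FPKM, while Cldn5, a tight junction gene of closed capillaries, averaged 2.62 FPKM. Pecam1 was at 6.21, 6.25, 6.23 and 4.00 FPKM, with the first 3 glands nearly equal. Mural cell and fibroblast markers summed to 144, 151, 202 and 115 FPKM, with gland 3 highest for 9 of 12 (7 in TPM) and gland 4 lowest for 10 (11 in TPM). Rgs5, a pericyte gene, averaged 37.7 FPKM, and the collagen gene Col1a1 was at 15.9, 15.2, 36.3 and 12.9 FPKM. Red blood cell genes summed to 258 FPKM in the female and 336, 502 and 356 FPKM in the males, with gland 3 highest for 4 of 5. Hbb-bs, a beta globin, was at 194 FPKM in the female and 251, 361 and 214 FPKM in the males. Skeletal muscle markers summed to at most 1.68 FPKM and cartilage and bone markers to at most 4.93 FPKM, with that maximum in gland 3.

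Leukocyte markers made up a small share, led by antigen presentation and complement genes. Of 72 protein-coding leukocyte markers in 8 lists, 28 reached 1 FPKM, 10 reached 10 and 1 reached 100. Of all 22046 protein-coding genes, 11952 reached 1, 4199 reached 10 and 201 reached 100. They summed to 339 FPKM in the female and 394, 499 and 389 FPKM in the males, or 0.0785%, 0.0881%, 0.0964% and 0.0752% of protein-coding transcripts in glands 1 to 4. The mean share was 0.0845 ± 0.00964% (SD, n = 4), which is a share of marker transcripts and not of cells. Gland 3 was highest for 43 of the 72, or 34 in TPM. Gland 1 was lowest for 31 of them and for the sum, but in TPM it was lowest for 19 and the lowest sum was in gland 4. The shares of all genes highest in gland 3 or lowest in gland 1 were not counted. Gland 3 was also the gland with more signal of short genes, given above, and with the most globin and fibroblast transcripts. The part of each in the leukocyte sum was not tested.

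Cd74, the invariant chain of MHC class II, was the highest leukocyte gene, at 89.7 FPKM in the female and 97.6, 124 and 98.3 FPKM in the males. With H2-Eb1, H2-Ab1 and H2-Aa, chains of class II itself, it summed to 157 FPKM in the female and 175, 219 and 177 FPKM in the males. Markers of dendritic cells proper were near the lower end: Zbtb46 averaged 0.631 FPKM, Xcr1 0.0754 FPKM and Flt3 0.0384 FPKM. The 3 C1q chains, complement genes made mainly by macrophages, summed to 69.2 FPKM in the female and 82.6, 111 and 87.8 FPKM in the males. Gland 3 was highest and gland 1 lowest for each of these class II and C1q genes, but in TPM gland 4 was lowest for Cd74 and H2-Eb1.

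Of 24 macrophage genes, 16 reached 1 FPKM. C1qa averaged 38.7 FPKM, the lysosomal protease Ctss 36.02 FPKM, C1qb 32.4 FPKM, C1qc 16.4 FPKM, the pore protein Mpeg1 10.5 FPKM and the adaptor Tyrobp 10.5 FPKM. Csf1r, which encodes the CD115 receptor, was at 5.54 FPKM in the female and 8.20, 7.50 and 5.48 FPKM in the males. Folr2 and Timd4, markers of border and resident macrophages in other tissues, averaged 0.0607 and 0.0115 FPKM. They were the only 2 of the 24 under 0.1 FPKM, and the other border macrophage markers on the list were not.

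Markers of other leukocytes were low. Monocyte markers summed to 2.57 to 4.79 FPKM, and T and NK cell markers to 2.18 to 2.84 FPKM, with Cd3e at 0.0717 FPKM and Ncr1 at 0.0661 FPKM on average. B and plasma cell markers summed to 3.53 FPKM in the female and 5.09, 9.08 and 5.54 FPKM in the males, nearly all of it Cd79b, while the B cell marker Ms4a1 averaged 0.0330 FPKM. Neutrophil and mast cell markers were uneven. The neutrophil calgranulin S100a9 was at 1.12, 1.87, 7.59 and 1.33 FPKM, and mast cell markers summed to 0.329, 0.995, 3.44 and 0.357 FPKM, both highest in gland 3. The neutrophil genes Mpo and Ly6g averaged 0.0177 and 0.0111 FPKM, and the mast cell receptor Fcer1a had no count, with floors of 0.0866 to 0.127 FPKM.

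**Figure D4:**
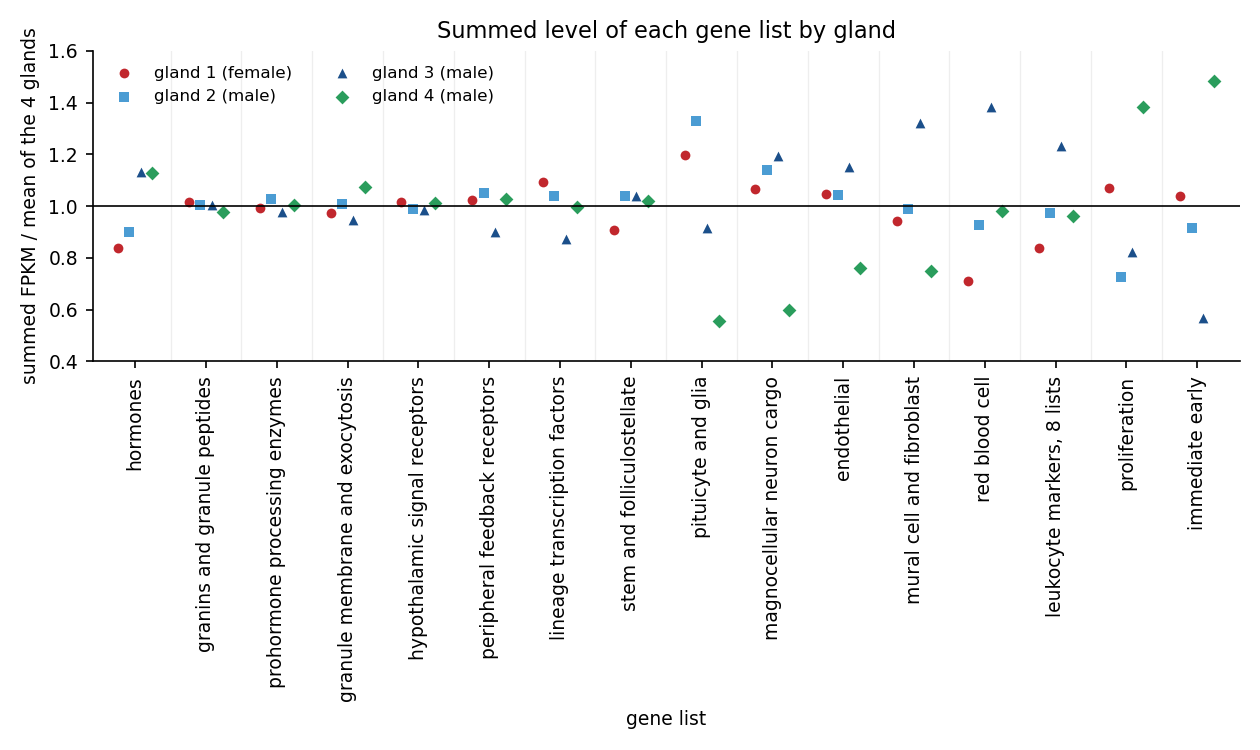
Summed FPKM of 16 gene lists in each gland, divided by the mean of the 4 glands, so that 1 is the mean. Granins, processing enzymes and hypothalamic signal receptors stay near 1 in every gland on this scale (CVs of 9.74 to 10.4% in TPM), gland 4 is low for pituicyte, magnocellular, endothelial and mural lists, and gland 3 is high for red blood cell and leukocyte lists.

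The proliferation and the immediate early genes had their highest sums in gland 4. The 10 proliferation genes summed to 57.8, 39.2, 44.3 and 74.5 FPKM, and gland 4 was highest for 9 of them, or 8 in TPM, where the sums of glands 4 and 1 lay closer together, at 137 and 126. The replication clamp gene Pcna averaged 19.8 FPKM, and Top2a, a topoisomerase of dividing cells, was at 5.35, 3.42, 2.88 and 8.41 FPKM. The 10 immediate early genes, which respond within minutes to stimulation and to tissue handling, summed to 95.1, 83.8, 52.1 and 136 FPKM, with gland 4 highest for 7, also in TPM. For both lists, the share of all genes highest in gland 4 was not counted. Junb was at 8.60, 15.5, 8.97 and 40.3 FPKM and Egr1 at 5.64, 8.64, 7.29 and 19.0 FPKM. Nr4a1, an orphan nuclear receptor, had another order, at 52.8, 26.7, 8.28 and 32.6 FPKM.

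Over 11951 genes with a mean of at least 1 FPKM and 10 counts, the median CV among the 4 glands was 10.7% (interquartile range 6.95 to 16.3%), against a median of 3.34% that counting error alone would give. In 95.3% of these genes the CV was above the counting error. A CV over 50% was found in 140 genes and one under 5% in 1418. Among the hormone genes, Prl had a CV of 85.0%, Fshb 39.7%, Gh 25.1%, Lhb 23.4%, Tshb 19.2%, Pomc 18.4% and Cga 6.90%. Of these Cga alone lay under the median of all genes, but this rests on the female gland and on the scale. Among the 3 males the CVs were 5.13% for Lhb, 6.28% for Pomc, 7.08% for Cga and 9.56% for Fshb, all under the median of 10.4% without gland 1. In TPM, Pomc with 12.5% and Cga with 12.03% lay under the median of 14.6%. By list, the median CV was 9.42% for processing enzymes, 16.1% for lineage factors, 18.7% for endothelial genes and 17.9% for the leukocyte markers.

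The 10 genes with the highest CV, among those with 10 FPKM and 100 counts or more, were high in different glands. Ptgds, the lipocalin-type prostaglandin D synthase, was high in gland 3 alone, at 15.3, 36.02, 488 and 13.9 FPKM, and Igfbp2 and Col1a1 were also highest there. A further 3 genes of low mean, named after their values were seen, shared this pattern: Fmod, an extracellular matrix proteoglycan, at 1.24, 0.958, 14.2 and 0.305 FPKM, Slc6a13, a GABA transporter, at 0.230, 0.516, 4.63 and 0.168 FPKM, and Gjb2, a gap junction gene, at 1.301, 2.23, 7.41 and 2.01 FPKM. Ecel1, a neuronal endopeptidase, and Prl were high in the female alone. Junb, Egr1 and Bdkrb2, a bradykinin receptor, were highest in gland 4. Nr4a1, given above, was highest in the female and lowest in gland 3.

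At the other end, 9 of the 10 most even genes were Lonp2, Rhoa, Rabggtb, Reep2, Ccdc85c, Ndufa5, Rab12, Nptn and mt-Nd4, with CVs of 0.303 to 0.891%, or 8.75 to 10.1% in TPM. The peroxisomal protease Lonp2 was at 20.14, 20.02, 20.13 and 20.04 FPKM, and the GTPase Rhoa at 28.3, 28.2, 28.5 and 28.3 FPKM. Such values lie below the median counting error given above. That median is over all genes looked at for spread, and the CVs were not set against the counting error of each gene. They describe these 4 libraries on the FPKM scale only.

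**Figure D5:**
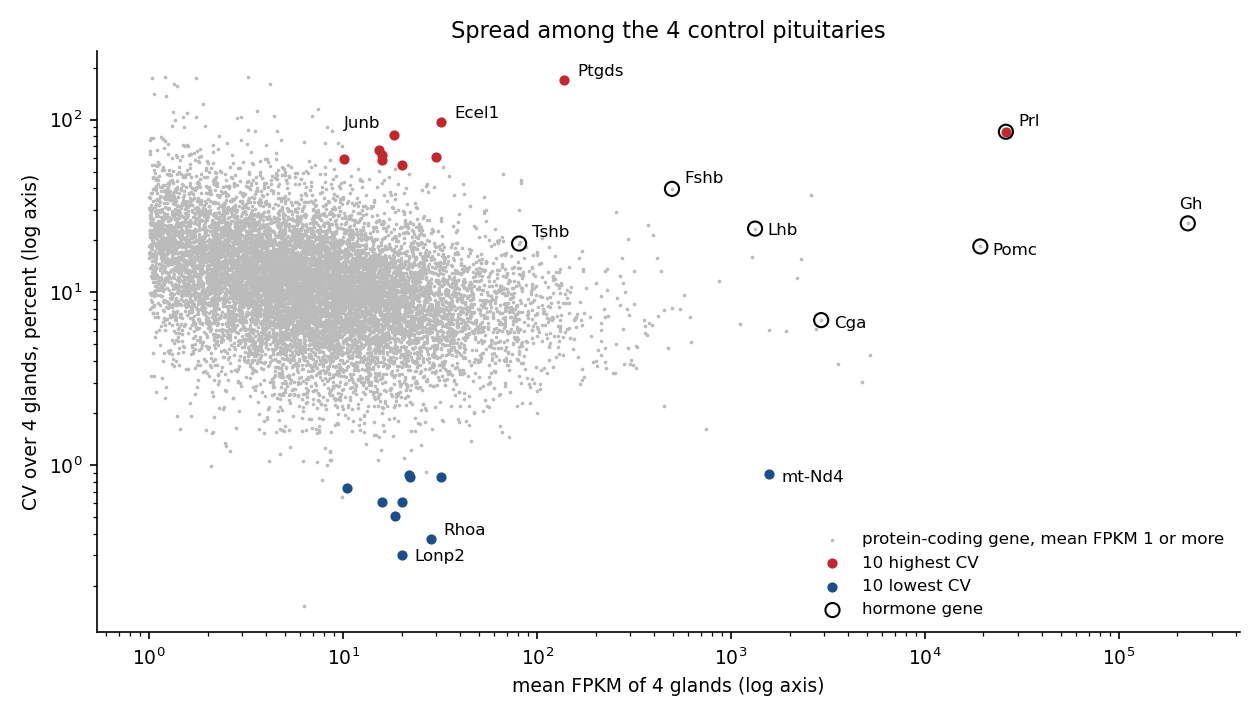
CV over the 4 glands, in percent, against mean FPKM, both on log axes, for 11951 protein-coding genes (grey), with the 10 highest and 10 lowest CVs and the 7 hormone genes marked. Ptgds, Ecel1 and Prl lie at the top, and of the hormone genes only Cga lies below the median of 10.7% in FPKM over all 4 glands; without the female gland Lhb, Pomc and Fshb do too (5.13%, 6.28% and 9.56% against 10.4%), and in TPM Pomc does (12.5% against 14.6%).

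Set against the 3 males, the female gland was over 1.5-fold above the highest male for 31 of 7106 genes with a mean of 5 FPKM or more (0.436%), and over 1.5-fold below the lowest male for 45 (0.633%), of which 1 is Y-linked. Such a count is not particular to the female. Counted in the same way, each gland against the other 3, the male gland 3 had 51 genes above and 85 below, gland 4 had 20 and 23, and gland 2 had 1 and 3. Without gland 2 the female was above in 49 genes and below in 101, and without gland 3 it was below in 73. For a fixed set of genes, leaving out a male can only raise these counts. With 1 female no test was possible.

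Apart from Prl, the 6 genes furthest above the highest male were Rps23, Ecel1, Crtac1, Rims4 and Dclk1. Ecel1 was at 78.7 FPKM in the female and 19.3, 15.0 and 15.4 FPKM in the males, a value 4.09 times that of the highest male. Crtac1, a cartilage acidic protein, was at 12.8 FPKM in the female and 6.20, 4.93 and 4.54 FPKM in the males, Rims4, a presynaptic gene, at 9.56 FPKM in the female and 4.13, 4.09 and 4.75 FPKM in the males, and Dclk1, a microtubule-associated kinase, at 27.0 FPKM in the female and 13.96, 11.4 and 12.7 FPKM in the males. The ribosomal protein gene Rps23, at 20.4 FPKM in the female and 3.13, 3.24 and 3.07 FPKM in the males, has the near-identical pseudogenes Rps23-ps1 and Rps23-ps2, so its value is uncertain. A gene below the 5 FPKM limit, named after its values were seen, was Akr1c14, a steroid-converting reductase, at 11.8 FPKM in the female and 0.484, 0.495 and 0.193 FPKM in the males.

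The 6 genes furthest below the lowest male were Lcn2, Maob, Fshb, Nog, Wnt10a and Bdkrb2. Lcn2, an iron-binding lipocalin, was at 2.85 FPKM in the female and 13.1, 16.0 and 15.9 FPKM in the males, so the female had 0.218 times the level of the lowest male. Maob, monoamine oxidase B, was at 3.85 FPKM in the female and 11.2, 10.4 and 12.7 FPKM in the males. Nog, the antagonist noggin of bone morphogenetic proteins, was at 6.95 FPKM in the female and 19.0, 17.5 and 30.3 FPKM in the males, and the ligand gene Wnt10a at 5.55 FPKM in the female and 12.6, 16.3 and 20.01 FPKM in the males. Bdkrb2 was at 5.27 FPKM in the female and 20.3, 11.8 and 26.3 FPKM in the males.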

How the data were processed

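Per the labels' protocols, whole pituitaries were lysed for RNA and 100 ng of RNA per gland entered a stranded mRNA library kit. The tools named in the submitters' processing notes are HISAT2 2.0.5, StringTie 1.3.3b and also featureCounts 1.5.0-p3, on the build GRCm38; settings and the use of strand in counting are not given in the sources used here. The deposited count table holds whole-number reads per gene. The deposited FPKM values equal these counts per kilobase of listed gene length and per 1e6 reads of a library size that lay from 4.42% below (-4.42%) to 1.96% above the total count. Protein-coding genes took 94.5 to 95.3% of summed FPKM and processed pseudogenes 2.47 to 2.94%.

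From these, means, SDs, CVs, shares and ranks were computed with Python 3.11.15 and pandas 2.3.3, and TMM factors (0.966 to 1.03) with edgeR 4.0.16 in R 4.3.3; the code was tested on simulated data. No groups were compared by a test; Dixon's limit for 4 values was used to flag single glands. The members and gene lists were chosen with earlier results of these data known. Named were the 20 highest genes, every hormone gene, in each list up to 6 highest and those under 0.1 FPKM, the 10 highest annotated transcription factors, the 10 highest and 10 lowest CVs and the 6 genes furthest above and below the males. Receptors, lineage factors and further list members were named where they described a group, after their values were seen. A few genes that these rules choose are not reported here; list counts and sums include them.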

Additional observations from a re-analysis of the deposited data

Results flagged for a closer look

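Of 177 named genes at 1 FPKM or more and 36 list sums, 19 genes and 4 sums had 1 gland far from the other 3, its gap to the nearest being more of the whole range than Dixon's limit for 4 values allows. Chance gives about 1 in 20, but the count of named genes cannot be read against it, since 8 of the 19 had been named for a high CV or for their distance from the males. Over all 11951 genes looked at for spread, 6.70% had such a gland, and gland 3 was that gland for 432 of the 801. The female gland was far above the males for Prl (59223 FPKM) and with it the lactotroph list (59381 FPKM), and for Chgb (2591 FPKM), Ecel1 (78.7 FPKM), Six6 (51.0 FPKM), Dclk1 (27.0 FPKM), Rps23 (20.4 FPKM), Foxl2 (13.6 FPKM) and Rims4 (9.56 FPKM). It was far below them for mt-Nd6 (2494 FPKM) and for the stem and folliculostellate list (300.3 FPKM), neither of which was lowest in the female in TPM. Dixon's limit was applied on the FPKM scale only, for all flags given here and below. A gland flagged in FPKM may lie within the limit in TPM, also where it stays the highest or lowest.

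Gland 3 was far above the others for Ptgds (488 FPKM), Col1a1 (36.3 FPKM), Igfbp2 (30.7 FPKM), Tyrobp (14.02 FPKM), S100a9 (7.59 FPKM), Cd52 (5.08 FPKM) and Rbfox3 (2.62 FPKM). It was far below them for Cplx2 (51.4 FPKM) and the peripheral feedback receptor list (278 FPKM). Gland 4 was far below for Pecam1 (4.00 FPKM), and gland 2 for Mylpf (0.557 FPKM), a muscle myosin gene, and with it the skeletal muscle list (1.00 FPKM).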

How the results depend on the processing

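No paired analysis was possible because no groups were compared. TMM scaling cannot change the shares, since its factor cancels in them. It shifts genes from the deposited FPKM by only -0.0074 to 0.0114 on the log2 scale, so it could move the other results little. The library size behind the deposited FPKM lay 1.54%, 1.96%, -1.18% and -4.42% from the total count in glands 1 to 4. TMM factors of 1.03, 1.02, 0.986 and 0.966 move it the same way. The deposited FPKM thus already hold a scaling close to TMM, and TMM is no independent check of them. With TMM the count of genes below the males moved to 48. TPM divides by the summed FPKM of a gland, which Gh raises in glands 3 and 4, and so shifts all genes by 0.14, 0.09, -0.12 and -0.11 on the log2 scale in glands 1 to 4. On that scale the median CV was 14.6% and the female was above the males in 87 genes. TPM sums to 1e6 per gland and summed FPKM does not, so levels in the 2 units are not set side by side. Gland 4 stayed lowest for the pituicyte, magnocellular, endothelial and mural lists and gland 3 highest for the leukocyte sum, but the lowest leukocyte sum was then in gland 4 and not gland 1.

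Counted as reads, the shares were 26.5% for the hormone genes, 19.7% for Gh and 0.0713% for leukocyte markers. The median CV was 14.7% without a filter on low values, 8.53% at 10 FPKM and 100 counts or more, and 8.92% as the SD of log2(FPKM + 1). The female was above or below the males in 5 and 11 genes with a factor of 2, and in 1766 and 1563 genes with none. Leaving out each gland in turn gave 11926 to 11987 genes at 1 FPKM or more, hormone shares of 56.5 to 58.7%, Gh shares of 44.7 to 50.4%, leukocyte shares of 0.0806 to 0.0877% and median CVs of 8.12 to 10.9%, the lowest without gland 3. Leaving out each male gave 41 to 49 genes above and 53 to 101 below, in both cases the most without gland 2. Without gland 3 there were 73 below. For a fixed set of genes these counts can only rise, since the female is set against the extremes of fewer males. The rise is therefore no measure of robustness. The causes of the other differences were not tested. The CVs of single hormone genes and of Drd2 in TPM and without gland 1, the numbers of list members highest or lowest in a gland in TPM, and the TATAAA share without hormone genes were added after seeing the data.

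With 1 female and 3 males of unknown litters, the spread joins animal, litter, sex and dissection, which cannot be told apart. Depth set the floor for genes without a read, 0.0864 to 0.127 counts per 1e6 counts.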
